A study of Homo sapiens with 6 samples.

Results

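The 10 genes described here encode mucins, namely MUC1, MUC3A, MUC4, MUC12, MUC13, MUC15, MUC16 and MUC20 of the cell surface and the secreted, gel-forming MUC5AC and MUC5B. They were taken by gene symbol from a table of 16617 genes, and all 10 are in it. The set was proposed with the fold changes of this same comparison known, so the values below are a description and no test of the set was made. The RNA came from cultures of T3M4, a long-used human cell line of pancreatic ductal adenocarcinoma, grown in DMEM with fetal bovine serum. In 3 libraries the cells carried a guide RNA against METTL13 (sgMETTL13, called a METTL13 knockdown in the labels), and in the other 3 a control guide RNA (sgControl, called WT). METTL13 is a methyltransferase that acts on the translation elongation factor eEF1A, and the series asks which messages depend on methylated eEF1A. The labels do not say whether the libraries of a group came from separate cultures or whether a clone was used. Every TPM value below, a measure of transcripts scaled for length and depth, is the authors' mean of 3 libraries, given without a spread, and a gene is called where its deposited adjusted p is under 0.05.

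Mucins are large glycoproteins whose serine- and threonine-rich repeats carry dense O-linked sugars. Membrane mucins span the plasma membrane, shed their extracellular part and signal through short cytoplasmic tails, while gel-forming mucins are secreted and polymerise into mucus. Pancreatic ductal cancers are known for expressing MUC1, MUC4, MUC16 and MUC5AC, of which MUC4 is almost silent in the normal pancreas.

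MUC4, MUC16 and MUC1 were lower in the sgMETTL13 cells, and these are the only members that passed the authors' test. MUC4 fell to 0.400 of its control level, MUC16 to 0.467 and MUC1 to 0.729 in the authors' deposited table. No member was called higher. By the p-values before adjustment, 4 members were lower at a threshold of 0.05 and 0 were higher. These 4 were the called members and MUC5B. The share of all genes that pass this unadjusted threshold is not given here, so nothing is read from the 2 counts. Of the 16617 genes, the authors' deposited table calls 3.8%, with 1.08% lower and 2.73% higher, and 0.0662% were called lower by at least 1 on the log2 scale, as MUC4 and MUC16 were. Because the set was proposed from this comparison, nothing is read from 3 calls in 10 beside that background. In bulk RNA, fewer cells that express a gene and less of its RNA per cell cannot be told apart. The targeted gene itself averaged 5.63 TPM in sgMETTL13 and 39.9 TPM in sgControl, which the authors' deposited table gives as -2.78 on the log2 scale.

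The repeats of these 3 genes were looked up in reference transcripts, which need not be the ones the authors counted reads on. For MUC1 the deposited reads and TPM imply a length of 1720 bases in sgMETTL13 and 1715 bases in sgControl. Its longest GENCODE 29 transcript has 4170 bases. For MUC4 the implied lengths were 22567 bases in sgMETTL13 and 22350 bases in sgControl, against 17110 bases in its longest GENCODE 29 transcript. For MUC16 they were 23293 and 26146 bases in the same order, against 43816 bases. The tandem repeat typical of mucins is visible in the longest GENCODE 29 protein-coding transcript of MUC1 and MUC4, and in that of MUC20, a membrane mucin that was not called. The exact unit found most often in each transcript, at the period with the most equal bases, is given in lower case, 5′ to 3′.
MUC1 repeat unit: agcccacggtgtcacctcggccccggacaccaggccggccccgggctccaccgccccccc
MUC4 repeat unit: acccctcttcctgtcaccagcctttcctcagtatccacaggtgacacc
MUC20 repeat unit: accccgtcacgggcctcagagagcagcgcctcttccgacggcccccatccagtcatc
The MUC1 unit is 60 bases long and occurs 19 times without a mismatch, the MUC4 unit is 48 bases and occurs 14 times, and the MUC20 unit is 57 bases and occurs 10 times. In other uncalled members, the most frequent exact stretch at the best period had 72 bases in MUC5AC, 87 in MUC5B and 84 in MUC12. These occurred 6, 5 and 4 times in this order. Copies were counted anywhere in a transcript, so these stretches need not be tandem repeats. In MUC16 the best period was 468 bases, with 33.7% of bases equal from one period to the next, and its unit occurs only once without a mismatch.

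The promoters of the 3 genes that fell are printed from RefSeq (GRCh38.p14), each from 250 bases before to 50 bases after a start site, because these are the called members. All lie on the minus strand and are given in the direction of transcription. Capitals mark matches, read on both strands, to the GC box of SP1 spelled GGGCGG, the core promoter element spelled TATAAA, the STAT site spelled TTCNNNGAA and the AP-1 site spelled TGANTCA. Overlapping matches run together. RefSeq gives MUC1 a further start site 6 bases away, whose window overlaps the one shown, and both MUC16 windows lie upstream of the gene as GENCODE 29 draws it.
MUC1, chr1:155192866-155193165: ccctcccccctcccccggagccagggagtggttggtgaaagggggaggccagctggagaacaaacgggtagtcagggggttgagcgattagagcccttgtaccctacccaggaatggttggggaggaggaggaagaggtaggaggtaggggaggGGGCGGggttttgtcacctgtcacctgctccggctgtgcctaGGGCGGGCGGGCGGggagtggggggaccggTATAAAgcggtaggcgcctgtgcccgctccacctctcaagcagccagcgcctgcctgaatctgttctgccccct
MUC4, chr3:195811880-195812179: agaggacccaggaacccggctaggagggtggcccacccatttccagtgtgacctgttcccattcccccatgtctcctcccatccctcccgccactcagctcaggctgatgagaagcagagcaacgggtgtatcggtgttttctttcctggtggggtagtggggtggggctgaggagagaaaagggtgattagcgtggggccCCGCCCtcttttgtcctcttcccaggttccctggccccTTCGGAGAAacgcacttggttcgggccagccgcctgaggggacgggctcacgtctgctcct
MUC16 first start site, chr19:9065702-9066001: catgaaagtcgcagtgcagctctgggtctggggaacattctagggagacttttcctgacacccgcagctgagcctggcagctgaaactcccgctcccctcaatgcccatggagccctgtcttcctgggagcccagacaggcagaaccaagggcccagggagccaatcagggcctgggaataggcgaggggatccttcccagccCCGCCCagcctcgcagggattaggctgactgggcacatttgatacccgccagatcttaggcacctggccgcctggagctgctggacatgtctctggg
MUC16 second start site, chr19:9010360-9010659: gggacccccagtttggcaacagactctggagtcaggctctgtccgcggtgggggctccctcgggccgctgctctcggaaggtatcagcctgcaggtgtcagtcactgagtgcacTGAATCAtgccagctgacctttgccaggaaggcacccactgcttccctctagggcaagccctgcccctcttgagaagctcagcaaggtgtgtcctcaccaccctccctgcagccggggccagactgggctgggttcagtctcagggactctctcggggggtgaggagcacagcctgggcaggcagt
The MUC1 window held 4 GC boxes and 1 TATAAA match. The MUC4 window held 1 GC box and 1 STAT match, the first MUC16 window 1 GC box, and the second MUC16 window 1 AP-1 match and no GC box. Of 35116 RefSeq promoter windows of the same length, 45.0% held a GC box match, 11.5% a TATAAA match, 7.66% a STAT match and 7.71% an AP-1 match. The RefSeq table also lists MUC3A, MUC12 and MUC13, whose windows held 1 GC box, 1 TATAAA match and 1 AP-1 match in this order. These are letter matches only and say nothing about binding.

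MUC4, a membrane mucin that binds the receptor ERBB2, had the largest called fall of the set. It averaged 0.633 TPM in sgMETTL13 cells and 1.68 TPM in sgControl cells in the authors' deposited table. Summed over the 3 libraries of a group, this was 339 reads in sgMETTL13 and 877 reads in sgControl. Both the average level and the reads were thus lower in sgMETTL13. The authors' deposited table gives a log2 fold change of -1.32 and an adjusted p of 4.91e-13. From these, an implied standard error of 0.164 and a 95% interval of -1.64 to -1.0004 follow. By size it ranks 4 of 179 among the called falls of the authors' deposited table. MUC4 (Entrez gene 4585) is a protein-coding gene on the minus strand of chromosome 3 from 195746765 to 195812277 in GRCh38, with 25 exons in its longest transcript, the longest of 12708 bases.

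MUC16, the largest membrane mucin and a ligand of mesothelin, fell almost as far. It averaged 1.07 TPM in sgMETTL13 cells and 2.15 TPM in sgControl cells in the authors' deposited table. The summed reads were 593 in sgMETTL13 and 1315 in sgControl. The authors' deposited table puts the log2 fold change at -1.10, adjusted p 5.1e-13. Its implied standard error was 0.136, for a 95% interval of -1.36 to -0.83. It ranks 9 of 179 by size. The implied intervals of MUC4 and MUC16 overlap, and the difference between their falls was not tested. MUC16 (Entrez gene 94025) lies on the minus strand of chromosome 19 from 8848844 to 8981342 in GENCODE 29, with 84 exons and 43521 coding bases in its longest transcript, more than any other member.

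MUC1, whose cytoplasmic tail is phosphorylated by receptor and SRC-family kinases, fell less in proportion but carried most of the mucin transcripts. It averaged 41.1 TPM in sgMETTL13 cells and 59.4 TPM in sgControl cells in the authors' deposited table. Its summed reads were 1676 in sgMETTL13 and 2380 in sgControl. The authors' deposited table lists it at -0.46 on the log2 scale, adjusted p 0.00546. The implied standard error of 0.118 corresponds to a 95% interval of -0.69 to -0.22. That interval does not overlap those of MUC4 and MUC16; the difference itself was not tested. MUC1 (Entrez gene 4582) lies on the minus strand of chromosome 1 from 155185824 to 155192916. GENCODE 29 places an exon of AL713999.1 over it on the same strand, so some of its reads could belong to that gene.

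**Figure D1:**
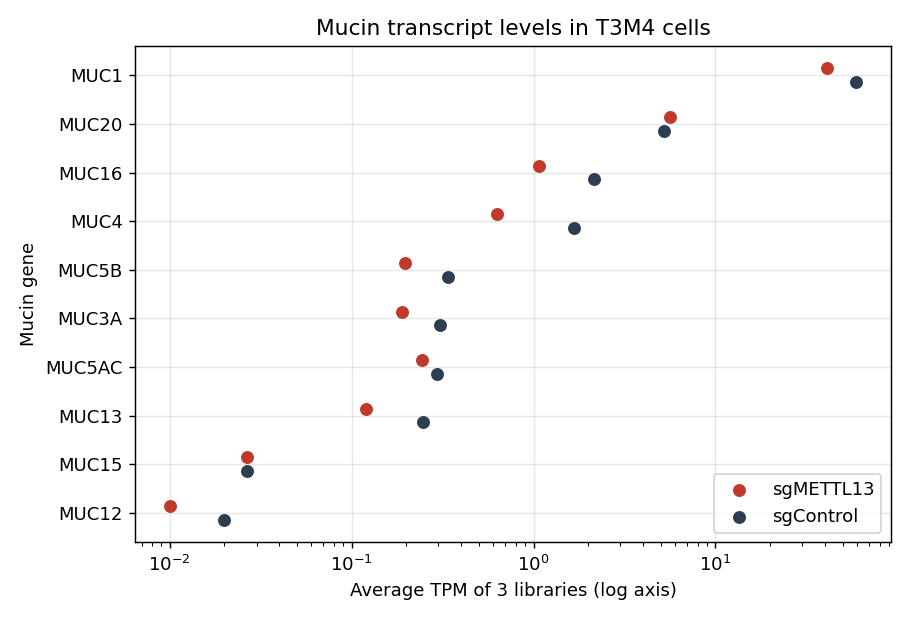
Average TPM of each mucin (log axis) in sgMETTL13 (red, upper point) and sgControl (dark, lower point) cells, each point a mean of 3 libraries made by the authors with no spread given. MUC1 stands at 41.1 TPM in sgMETTL13 and 59.4 TPM in sgControl, and MUC16 and MUC4 show the widest separation among genes above 0.5 TPM.

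Among the membrane mucins that were not called, MUC20 had the highest level and did not follow MUC4, its neighbour on chromosome 3. MUC20, which associates with the receptor MET, averaged 5.65 TPM in sgMETTL13 and 5.21 TPM in sgControl in the authors' deposited table. That was 0.19 (log2) in the authors' deposited table, and the implied 95% interval of -0.25 to 0.63 does not reach that of MUC4. MUC3A, a membrane mucin best known from the intestine, averaged 0.190 TPM in sgMETTL13 and 0.307 TPM in sgControl. The authors' deposited table puts it at -0.62 on the log2 scale, with an implied 95% interval of -1.51 to 0.27. A log2 fold change as low as that of MUC4 lies inside the MUC3A interval and outside that of MUC20. MUC20 (Entrez gene 200958) spans 195720882 to 195741123 on the plus strand of chromosome 3, and MUC3A (4584) spans 100949555 to 100968346 on the plus strand of chromosome 7.

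The remaining membrane mucins were too scarce for the differences seen to be detectable at this depth. MUC13, a membrane mucin of stomach and colon, had 8 reads over the sgMETTL13 libraries and 16 over the sgControl libraries, with exact 95% Poisson intervals of 3.45 to 15.8 reads in sgMETTL13 and 9.15 to 25.98 reads in sgControl. MUC12, known from the colon, had 3 reads in sgMETTL13 and 7 in sgControl. MUC15, a small membrane mucin, had 2 reads in each group. Their genes lie on the minus strand of chromosome 3 from 124905442 to 124953819 (MUC13), the plus strand of chromosome 7 from 100969623 to 101018949 (MUC12) and the minus strand of chromosome 11 from 26559033 to 26572233 (MUC15). Such intervals cover counting error only. The implied 95% intervals of the log2 fold change of these 3 genes ran from -2.82 to 0.92 for MUC13, from -4.36 to 2.00 for MUC12 and from -4.48 to 4.60 for MUC15 in the authors' deposited table.

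The gel-forming members, which lie side by side on chromosome 11, were both expressed at a low level. MUC5B, the main gel-forming mucin of the airway, averaged 0.197 TPM in sgMETTL13 and 0.340 TPM in sgControl in the authors' deposited table. Over the 3 libraries that was 84 reads in sgMETTL13 and 143 in sgControl. The authors' deposited table gives -0.71 on the log2 scale, with an unadjusted p of 0.0307 and an adjusted p of 0.305, so it did not pass. MUC5AC, the gastric and airway gel mucin that marks early pancreatic lesions, averaged 0.243 TPM in sgMETTL13 and 0.293 TPM in sgControl. Its value in the authors' deposited table was -0.20 on the log2 scale, and the implied 95% interval was -0.89 to 0.48. MUC5AC (Entrez gene 4586) spans 1157953 to 1201138 and MUC5B (727897) spans 1223066 to 1262172, both on the plus strand. The intervals of MUC5B and MUC5AC overlap each other and those of MUC1 and MUC16, and the interval of MUC5B also overlaps that of MUC4.

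**Figure D2:**
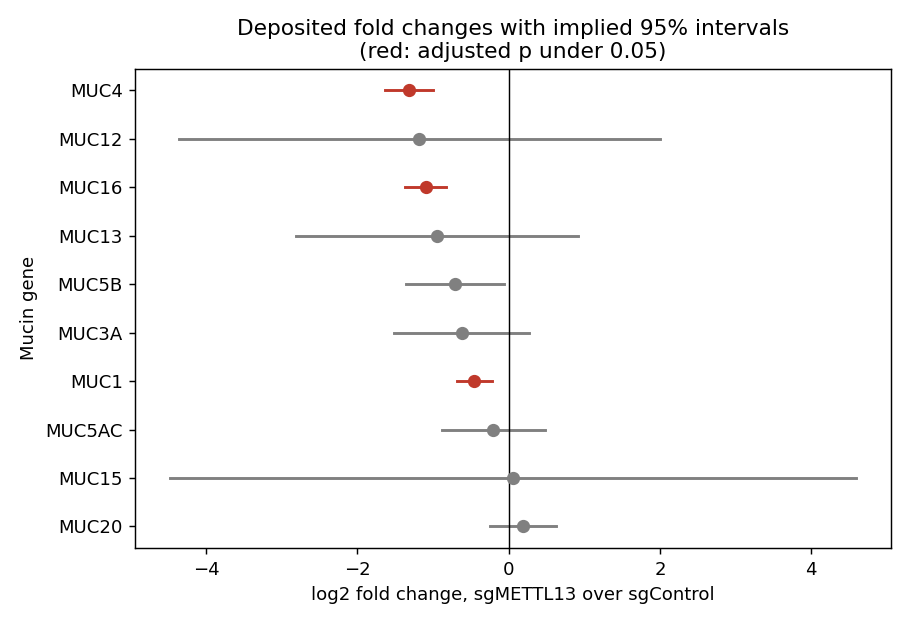
Deposited log2 fold changes (sgMETTL13 over sgControl) of the 10 mucins with the 95% intervals implied by the deposited p-values, red where the adjusted p was under 0.05. The intervals of MUC4, MUC16, MUC1 and MUC5B lie below 0, the last with an adjusted p of 0.305, and those of MUC12 and MUC15 span more than the whole range of the others.

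In both groups MUC1 was the most abundant mucin per length, with 83.4% of the summed mucin TPM in sgMETTL13 and 85.2% in sgControl. MUC20, MUC16 and MUC4 followed in this order in both groups, and MUC13, MUC15 and MUC12 closed it in both. MUC5AC held rank 5 in sgMETTL13 and rank 7 in sgControl, above MUC5B and MUC3A in sgMETTL13 and below them in sgControl. Among MUC5AC, MUC5B and MUC3A the levels lay between 0.190 and 0.243 TPM in sgMETTL13 and between 0.293 and 0.340 TPM in sgControl. Without a spread over libraries, which neighbours in this order differ was not tested. Summed over all 10 genes, the level was 49.2 TPM in sgMETTL13 and 69.7 TPM in sgControl.

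Of the 10 members 8 had a log2 fold change below 0, as did 49.8% of all genes, and the authors' deposited table gives the members a median of -0.67, against 0.001 for all genes. Only MUC1 and MUC16 reach the median of 205 mean reads per gene; MUC4 lies just under it at 203, 4 members have from 10 to 100 mean reads and 3 have fewer than 10. Among the 3680 genes within 2-fold of the reads of MUC4, the authors' deposited table calls 1.39% lower. Implied standard errors for MUC4, MUC16 and MUC1 were 1.13, 1.14 and 1.31 times the median of the 200 genes nearest in mean reads.

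**Figure D3:**
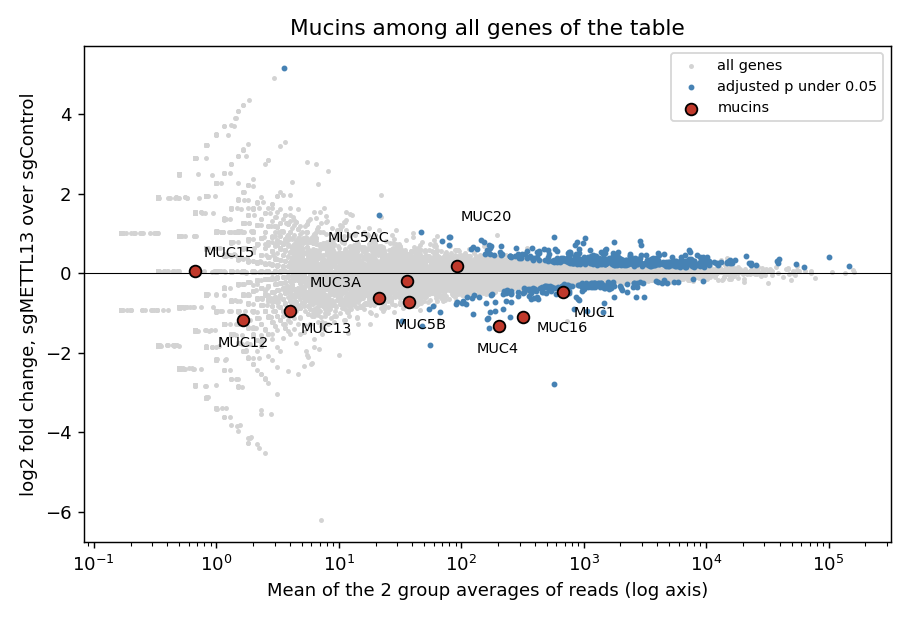
Log2 fold change (sgMETTL13 over sgControl) of every gene against its mean reads (log axis), with genes at an adjusted p under 0.05 in blue and the 10 mucins in red. MUC4, MUC16 and MUC1 lie among the called genes below 0, and the other 7 members lie among uncalled genes at lower read numbers.

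Genes beside MUC4 and MUC16 on the chromosome were not called, but only 3.8% of all genes were, so nothing is read from these counts. None of the 10 measured genes nearest to MUC4, 5 on each side, was called, and their log2 fold changes had a median of 0.06 in the authors' deposited table. TNK2, a tyrosine kinase gene and the nearest measured gene on the side away from MUC20, was at 0.07 in the authors' deposited table, implied 95% interval -0.12 to 0.26. None of the 10 genes nearest to MUC16 was called either, although 5 of them had under 10 mean reads. On either side of MUC16, ZNF558 was at 0.13 and ZNF317 at 0.08 (log2) in the authors' deposited table. TRIM46 and THBS3, the measured genes nearest to MUC1 on either side, stood at 0.15 and -0.19 in the authors' deposited table and were not called. Of the 10 measured genes nearest to MUC1, 1 was called. These genes were picked by position and not by their values.

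**Figure D4:**
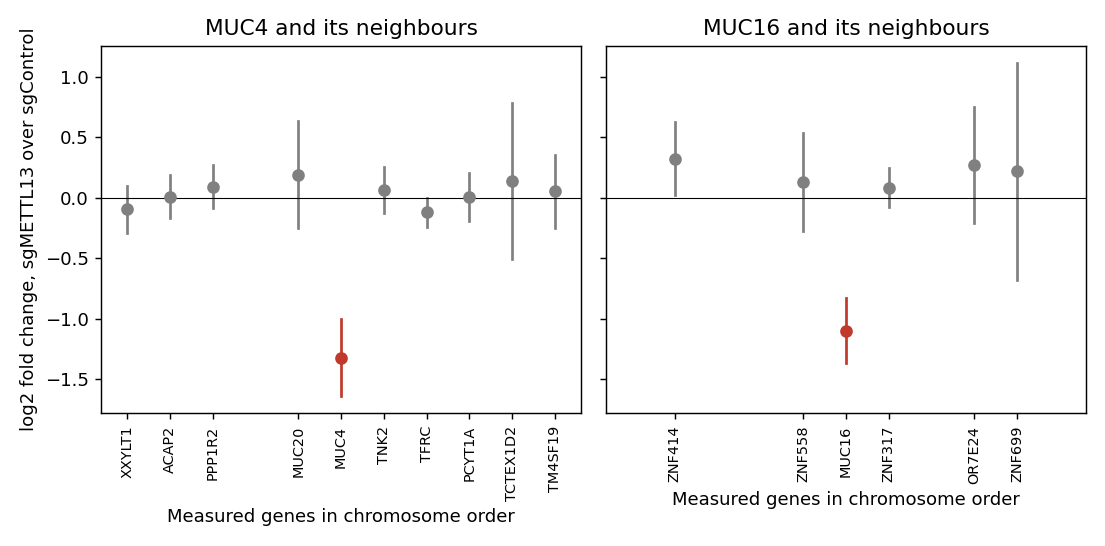
Log2 fold changes (sgMETTL13 over sgControl) with implied 95% intervals for MUC4 and MUC16 (red) and the measured genes with at least 10 mean reads among the 5 on each side (grey), in chromosome order. MUC4 and MUC16 are the only plotted genes with an adjusted p under 0.05.

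The members differed in transcript features that played no part in their choice. MUC4, MUC5AC, MUC5B, MUC12 and MUC16 have longest transcripts of 16737 to 43816 bases, above at least 99.6% of genes with a GENCODE 29 transcript, where the median is 3253 bases. MUC13, MUC15 and MUC20, at 2879, 3156 and 2842 bases, lie below that median. Of the stretches of 30 bases in the longest transcript, 48.6% occur more than once in MUC1, 42.6% in MUC4 and 3.86% in MUC16, against a median of 0 over all genes. The called and uncalled members overlap in this share, since MUC12 has 67.2%, MUC5B 36.8% and MUC20 21.0%. They overlap in length too, with 4170 bases in MUC1, 11226 in MUC3A and 2842 in MUC20. The GC content was 71.2% in MUC1, above 99.7% of genes, but 57.5% in MUC4 and 50.3% in MUC16.

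Reads that fit several genes are divided by the estimator, which gives sums that are not whole. Summed over 3 libraries, the reads of all 10 members were whole numbers within 0.005 in both groups, as were those of 78.6% of all genes. In GENCODE 29, exons of another gene overlap those of MUC1, MUC3A, MUC5B, MUC12, MUC15 and MUC20, while MUC4, MUC16, MUC5AC and MUC13 have none. Whether reads were counted by strand is not stated in the labels.

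For MUC16 the deposited columns differed on the size of the fall. Its average reads in sgMETTL13 were 45.1% of those in sgControl, while its average TPM was 49.8%. Reads and TPM together imply the transcript length used for a gene, which varies with how the estimator divides reads among the transcripts of that gene. This length was 23293 bases in sgMETTL13 and 26146 bases in sgControl for MUC16, a log2 ratio of -0.17. Among 9859 genes with at least 100 mean reads and 0.5 TPM in both groups, the SD of that ratio was 0.032, and 99.4% had a smaller one in size. The ratio was 0.01 for MUC4 and 0.00 for MUC1, so for these genes the ratios of reads and of TPM are close. A shift in the MUC16 transcripts used, of which RefSeq lists starts 55342 bases apart, was not tested.

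Among the other mucin genes of the table none whose symbol starts with MUC was called. MUC2, the gel-forming mucin of the intestine, averaged 1.42 TPM in sgMETTL13 and 1.64 TPM in sgControl. In the authors' deposited table it was at -0.12, implied 95% interval -0.48 to 0.23. MUC6, the gastric gland mucin, averaged 0.813 TPM in sgMETTL13 and 0.840 TPM in sgControl, 0.04 (log2) in the authors' deposited table. MUCL1 and MUC8 had fewer than 10 mean reads, and MUC17, MUC19 and MUCL3 had 1 read over all 6 libraries. In a list of 12 measured mucins and mucin-like glycoproteins outside the set, the authors' deposited table calls 1 lower and 0 higher. The counts at an unadjusted p under 0.05 were the same, and the median was -0.20. Over all genes 1.08% were called lower and 2.73% higher, so nothing is read from these counts. For this and the following lists, the share of all genes at an unadjusted p under 0.05 is not given here. PODXL, the anti-adhesive sialomucin podocalyxin, averaged 31.1 TPM in sgMETTL13 and 42.2 TPM in sgControl. It fell by 0.37 on the log2 scale, adjusted p 0.00158 in the authors' deposited table. The sialomucin CD164 (log2 fold change 0.11) and PARM1 (0.05), the most abundant uncalled genes of that list, did not pass in the authors' deposited table.

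Of the enzymes that build mucin sugars, 1 was called, against 3.8% called over all genes, so nothing is read from this count. Of 17 measured GalNAc transferases, which attach the first sugar of an O-glycan, none was called in the authors' deposited table; 1 was higher and 2 were lower at an unadjusted p under 0.05. GALNT3 and GALNT2, the most abundant of them, were at -0.07 and -0.15 (log2) in the authors' deposited table. Their list had a median log2 fold change of -0.15. For 17 enzymes that extend O-glycans the authors' deposited table calls 1 higher and 0 lower (1 higher and 1 lower at an unadjusted p under 0.05), with a median of -0.02. That one was the galactosyltransferase B4GALT1, which averaged 191 TPM in sgMETTL13 and 165 TPM in sgControl and rose by 0.28 on the log2 scale, adjusted p 0.000112 in the authors' deposited table. The sialyltransferase ST6GALNAC4 (0.11) and B3GNT3 (0.17), which extends core structures, were not called in the authors' deposited table.

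For 18 proteases and binding partners of membrane mucins the authors' deposited table calls 1 higher and 0 lower (3 higher and 1 lower at an unadjusted p under 0.05), with a median of 0.05. MMP14, a membrane metalloprotease that can shed MUC1, averaged 151 TPM in sgMETTL13 and 135 TPM in sgControl. It rose by 0.24 (log2) in the authors' deposited table, adjusted p 0.00279, but missed the threshold once a trend with transcript GC content and length was removed (adjusted p = 0.0804). The catenin JUP (0.12) and ezrin, encoded by EZR (-0.02), which link membrane proteins to the cytoskeleton, were not called in the authors' deposited table. Of 7 measured genes that help to fold or accompany gel-forming mucins none was called, and none had an unadjusted p under 0.05, in the authors' deposited table; AGR2, a disulfide isomerase for gel mucins, was at 0.02 and the transcription factor CREB3L4 at -0.09 on the log2 scale. The median of that list was -0.19. With 3.8% of all genes called, nothing is read from the count of either list.

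For 14 transcription factors of epithelial and mucin genes the authors' deposited table calls 3 higher and 0 lower (4 higher and 1 lower at an unadjusted p under 0.05), with a median of -0.10. Over all genes 2.73% were called higher and 1.08% lower. Because the list was chosen with earlier results of these data known, nothing is read from its count beside those shares. FOXA2, a foregut factor, averaged 22.05 TPM in sgMETTL13 and 15.6 TPM in sgControl and rose by 0.57 (log2) in the authors' deposited table (adjusted p = 0.000303). The zinc finger factor KLF4 averaged 61.3 TPM in sgMETTL13 and 50.7 TPM in sgControl and rose by 0.35 on the log2 scale, adjusted p 0.00086 in the authors' deposited table. KLF5 averaged 404 TPM in sgMETTL13 and 369 TPM in sgControl and rose by 0.20, adjusted p 0.0102 in the authors' deposited table. ELF3 (-0.11) and EHF (-0.24), epithelial ETS factors, were not called in the authors' deposited table, EHF with an adjusted p of 0.0592; adjusted over genes at or above the median of reads, EHF was called lower (adjusted p = 0.0318).

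**Figure D5:**
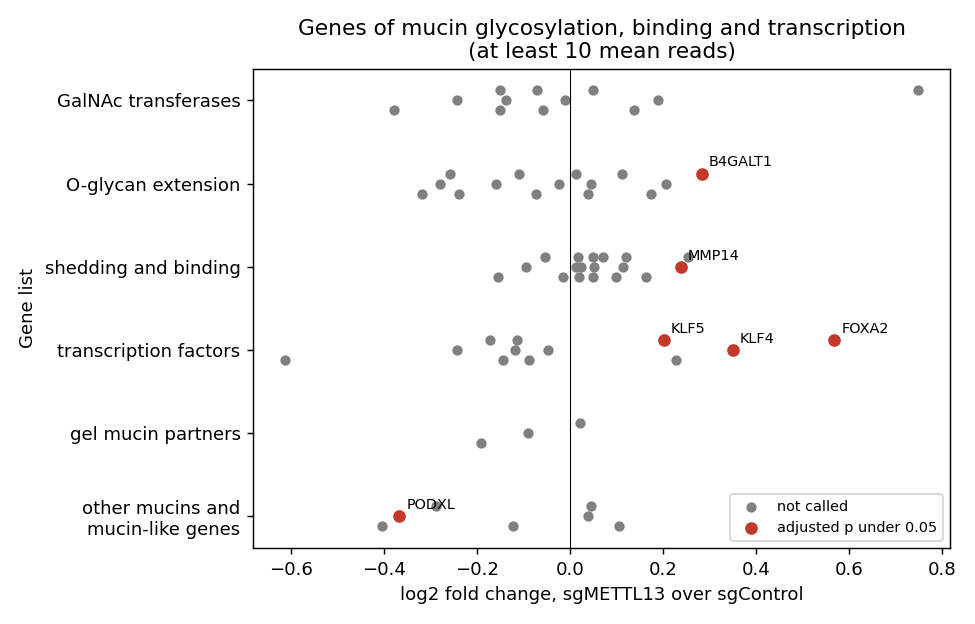
Log2 fold changes (sgMETTL13 over sgControl) of genes in 6 lists around mucin biology with at least 10 mean reads, each point 1 gene, red where the adjusted p was under 0.05. The called genes are PODXL below 0, and B4GALT1, MMP14, KLF5, KLF4 and FOXA2 above it.

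The cells carried the markers of their labelled origin. All 6 epithelial markers were expressed, with a summed level of 4602 TPM in sgMETTL13 and 4739 TPM in sgControl, and none was called (none at an unadjusted p under 0.05) in the authors' deposited table. KRT19 was at 0.05 and KRT8 at 0.01 (log2) in the authors' deposited table. Among leukocyte markers, PTPRC and CD3E were not analysed here, while CD68, which many cells express, averaged 44.1 TPM in sgMETTL13 and 40.9 TPM in sgControl. Of 5 measured fibroblast markers COL1A1 was the most abundant, at 14.2 TPM in sgMETTL13 and 14.0 TPM in sgControl, and the 5 summed to 17.3 TPM in sgMETTL13 and 17.2 TPM in sgControl, with PDGFRB at 0 in sgMETTL13 and COL1A2 at 0 in sgControl. The summed level of the endothelial markers, led by PECAM1 and VWF, was 1.44 TPM in sgMETTL13 and 2.04 TPM in sgControl, and that of the acinar markers, led by PRSS1 and CPA1, 1.96 TPM in sgMETTL13 and 0.837 TPM in sgControl. The 4 goblet cell markers, a type that secretes gel mucins, summed to 3.82 TPM in sgMETTL13 and 5.15 TPM in sgControl, with ATOH1 at 0 in sgMETTL13. Among them the goblet cell factor SPDEF averaged 1.21 TPM in sgMETTL13 and 1.95 TPM in sgControl, which the authors' deposited table does not call (-0.61 on the log2 scale). No marker of these lists was called, but only 3.8% of all genes were, so nothing is read from this count. At an unadjusted p under 0.05 in the authors' deposited table, 1 leukocyte marker, CD68, was higher (0.18 on the log2 scale, adjusted p 0.398). No marker of the other lists passed that unadjusted threshold. The part of these markers in the mucin values was not tested.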

How the data were processed

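Titles name the guide, which put 3 libraries in sgMETTL13 and 3 in sgControl; the labels tie columns named KD and WT to them. The authors deposited 1 table of group averages. Per the file headers it holds the average TPM, the average FPKM and the average read count (treated as estimated counts, since some sums over 3 libraries are not whole) of each group, and the authors' log2 fold change of KD over WT with its p-value and q-value, called the adjusted p. RSEM 1.2.12, DESeq2, Bowtie2 2.2.5 and HISAT2 2.0.4 are listed, with hg38 and GRCh38.p12, per the submitters' processing notes, without roles or order; which test gave the p-value is not stated there.

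The average reads summed to 15247500 per library in sgMETTL13 and 15240866 in sgControl; the depth of single libraries is unknown. Without values of single libraries, a count model could not be fitted, no SD is given, and the planned quasi-likelihood test was replaced by the deposited comparison at an adjusted p under 0.05. The p-values measure only the spread between these libraries, which may be technical. Implied standard errors divide the absolute log2 fold change by the two-sided normal quantile of its p-value, which assumes a normal test. The deposited log2 fold change exceeds the log2 ratio of average reads by 0.052 in the median of abundant genes. Members and lists were chosen with earlier results of these data known. Named genes are METTL13, all members, other genes whose symbol starts with MUC, up to 6 called members of each list and its 2 most abundant uncalled members; TNK2, ZNF558, ZNF317, TRIM46 and THBS3 were added by position, and some results are not reported here. Transcript features come from GENCODE 29 (16211 genes matched by Entrez ID) and promoters from RefSeq. Alternatives were other thresholds, recomputed adjustment, a filter on reads, ratios of the deposited averages, centring and, added after the data were seen, removal of a spline trend (4 degrees of freedom) in GC content and length. The steps were tested on simulated data. Tools were matplotlib 3.10.9, patsy 1.0.2, scipy 1.17.1, pandas 2.3.3 and numpy 2.4.6 in Python 3.11.15.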

Additional observations from a re-analysis of the deposited data

How the results depend on the processing

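MUC4, MUC16 and MUC1 kept their direction in every setting run. Their log2 fold changes ranged from -1.41 to -1.33, from -1.15 to -0.98 and from -0.59 to -0.47 over the ratios of average reads, TPM and FPKM, centring and the trend removal. With a pseudocount of 1 TPM, which shrinks scarce genes by construction, MUC4 was at -0.71, MUC16 at -0.60, MUC3A at -0.13 and MUC5B at -0.16, and the other 6 members moved by less than their implied standard error. As before, 3 members were called at adjusted p thresholds of 0.01 and 0.1, with the recomputed adjustment and with the trend removed; with genes under the median of reads left out 2 were called, because MUC4 falls under that filter. With the trend removed MMP14 was no longer called, which left 0 calls in the list of proteases and partners, and 3 transcription factors were called; that list had 2 calls at 0.01 and 4 at 0.1. It also had 4 at 0.05 among genes at the median of reads or more; in both cases EHF is the addition, as a lower call (adjusted p = 0.0318 under the reads filter). By FPKM all 10 members held their TPM rank in both groups, but by reads, which are not divided by length, 5 members in sgMETTL13 and 3 in sgControl held the same rank. Over all genes there were 632 calls, against 409 at 0.01, 889 at 0.1, 776 among genes at the median of reads or more and 440 with the trend removed. Leaving out a replicate was not run because only group averages were used. No paired analysis was possible because the columns are group averages that carry no replicate number. Depth limits MUC12, MUC13 and MUC15, each with fewer than 10 mean reads.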
